A study of Mus musculus with 4 samples.

Results

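The genes described here are nuclear genes for subunits of respiratory complexes I to IV. They were all autosomal protein-coding genes of the mm10 RefSeq annotation whose symbol is Ndufa, Ndufb, Ndufc, Ndufs or Ndufv followed by a number, Sdha to Sdhd, a Uqcr symbol, or a Cox4 to Cox8 subunit symbol. The rule gave 64 genes of 20661. A gene was called marked where a peak lay within 1000 bp of either end of the annotated gene. The X-linked subunit genes Ndufa1, Ndufb11 and Cox7b fell outside the rule, as did the autosomal genes Cyc1 and Ndufab1, so the set is not complete. The study mapped trimethylated lysine 4 of histone H3 (H3K4me3, antibody ab8580) and trimethylated lysine 9 (H3K9me3, antibody ab8898) by ChIP-seq, which sequences DNA bound to an antibody-selected histone. The cells were peritoneal macrophages drawn out by thioglycollate broth from C57BL/6 mice aged 8 weeks and then kept in culture dishes. One group was labelled Sun-/- (Sun knockout) and the other wild type, with 1 library per mark and genotype. The labels do not say which Sun gene was deleted, or how many mice each library stands for.

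Respiratory complexes I to IV lie in the inner mitochondrial membrane and pass electrons from NADH and succinate to oxygen. Complexes I, III and IV pump protons as they do so. Most of their subunits are encoded in the nucleus, a few catalytic ones in mitochondrial DNA, and the nuclear genes are known to be switched on together by factors such as NRF1, GABP of the ETS family and YY1. H3K4me3 marks the starts of active and poised genes, and H3K9me3 is best known from silent heterochromatin.

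The H3K4me3 lists held 28505 peaks in the knockout and 31398 in wild type, from 26748289 and 29681491 tags left after duplicate removal. Peaks took 14.0% of those tags in the knockout and 17.8% in wild type. The H3K9me3 lists held 17369 peaks in the knockout and 19279 in wild type, from 28586946 and 27727997 tags. With 1 library per mark and genotype there was no test of any difference between genotypes, so no p-value is given. Intervals are exact 95% binomial intervals and cover counting error only. All 10 macrophage markers examined, from Adgre1 to Mrc1, were marked by H3K4me3 in both genotypes, with 56 to 515 tags in the strongest peak in the knockout and 38 to 621 in wild type. The wild type minimum was Spi1, with 503 tags in the knockout and 38 in wild type by the gene-end rule. Of 8 mesothelial and fibroblast markers, 2 were marked in the knockout and 6 in wild type, the 4 marked in wild type alone (Upk3b, Krt19, Krt8 and Col1a2) having 33 to 101 tags there. Of 6 neutrophil markers, S100a8 (21 tags) and Camp (56) were marked in the knockout alone and Mmp8 (19) in wild type alone. The B cell genes Cd79a and Pax5 (2 of 5) and the T cell genes Cd3d and Cd4 (2 of 6) were marked in both genotypes. Cd79a had 256 tags in the knockout and 354 in wild type, and Cd4 had 216 in the knockout and 277 in wild type. None of 5 eosinophil and mast cell markers was marked in either. The part of other cells in the values below was not tested, and a change in cell makeup and a change within macrophages cannot be told apart in these bulk libraries.

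Nearly all subunit genes carried H3K4me3, and the marked set was the same in both genotypes. In the knockout 58 of the 64 genes had a peak at a gene end, and in wild type 58 did. Both sets were the same 58 genes, and 0 genes were marked in the knockout alone and 0 in wild type alone. By the same rule 63.3% of all autosomal protein-coding genes were marked in the knockout and 65.0% in wild type. A peak in both genotypes was found at 62.1% of all genes, in the knockout alone at 1.24% and in wild type alone at 2.94%. Complex I was marked throughout, at 7 of 7 core genes and 27 of 27 accessory genes. The 4 genes of complex II and the 8 of complex III that the rule took in were all marked. Complex IV, with Ndufa4 counted among its subunits, was marked at 12 of 18 genes, and the 6 genes without a peak at a gene end all belonged to it. They were Cox5a, Cox6a2, Cox7a2, Cox7b2, Cox8b and Cox8c.

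For Cox5a and Cox7a2, 2 widely expressed subunits, the gene ends used by the rule lay away from an annotated start. Each has a RefSeq start inside the annotated gene, farther than 1000 bp from both ends, and a peak lay at that start in both genotypes. Cox5a on chromosome 9 spans 57517328 to 57532427 with the start at 57521232. Its peak held 238 tags over 1378 bp in the knockout and 360 tags over 2268 bp in wild type. Cox7a2, also on chromosome 9, spans 79755241 to 79771422 on the minus strand with the start at 79759853, and had a pair of peaks there. They held 69 and 40 tags in the knockout and 107 and 78 tags in wild type. Judged by annotated starts, which were at hand for 51 members, 49 were marked in the knockout and 49 in wild type. Over the 16456 genes with such a start, 65.1% were marked in the knockout and 66.5% in wild type. The 2 members with a start and no peak were Cox7b2 and Cox8b.

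The tissue-restricted isoforms stood apart. Complex IV holds subunits with a widely expressed form and a form restricted to some tissues, such as the heart and skeletal muscle forms Cox6a2, Cox7a1 and Cox8b, the lung form Cox4i2 and the testis forms Cox6b2, Cox7b2 and Cox8c. Of these 7 restricted genes, 3 were marked in the knockout and the same 3 in wild type. Cox4i2 had 65 tags over 1235 bp in the knockout and 70 tags over 990 bp in wild type. Cox7a1 had 62 tags over 1131 bp in the knockout and 59 over 797 bp in wild type. Cox6b2 had 85 tags over 1316 bp in the knockout and 130 over 1745 bp in wild type. Per kb of peak they were the 3 lowest of the 58 marked genes in each genotype, with 52.6, 54.8 and 64.6 tags per kb in the knockout and 70.7, 74.0 and 74.5 tags per kb in wild type. Their widely expressed counterparts Cox4i1, Cox6a1, Cox6b1 and Cox8a had 128, 124, 68.3 and 83.8 tags per kb in the knockout and 147, 134, 157 and 108 tags per kb in wild type. The Cox4i1 peak also lay at ends of Emc8 and Gm27021, and the Cox6b2 peak at an end of Fam71e2.

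The sequences around the starts of these isoforms are shown because the widely expressed and restricted forms shown differ in CpG content. Cox5a is added as a widely expressed subunit with no restricted form among these genes. Each runs from 120 bases before to 30 bases from the start, from RefSeq on GRCm38.p6 (mm10). Capitals mark the ETS letters CCGGAAG, the Sp1 letters GGGCGG, the CCAAT box and the TATA box letters TATAAA, in either direction. In the windows shown, CCAAT boxes stand in both kinds (Cox6b1, Cox7a1 and Cox6b2) and TATAAA in Cox8b only. ETS and Sp1 letters stand there in widely expressed forms only. The restricted Cox7b2, whose window is not shown, has Sp1 letters at position -72. Over 300 bases per promoter, Sp1 letters were in 50% of the 4 restricted promoters and 40.8% of the 49 of the other members. The widely expressed forms are Cox5a (chr9:57521112-57521261, plus strand), Cox7a2 (chr9:79759824-79759973, minus strand), Cox8a (chr19:7217587-7217736, minus strand) and Cox6b1 (chr7:30626085-30626234, minus strand). The restricted forms are Cox7a1 (chr7:30184051-30184200, plus strand), Cox8b (chr7:140900417-140900566, minus strand) and Cox6b2 (chr7:4753065-4753214, minus strand).
Cox5a: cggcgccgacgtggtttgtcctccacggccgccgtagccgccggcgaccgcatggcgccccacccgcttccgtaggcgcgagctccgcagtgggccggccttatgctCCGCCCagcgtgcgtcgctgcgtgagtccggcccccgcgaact
Cox7a2: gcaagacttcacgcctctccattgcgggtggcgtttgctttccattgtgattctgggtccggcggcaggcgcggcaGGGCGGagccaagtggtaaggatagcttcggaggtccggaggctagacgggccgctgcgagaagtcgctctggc
Cox7a1: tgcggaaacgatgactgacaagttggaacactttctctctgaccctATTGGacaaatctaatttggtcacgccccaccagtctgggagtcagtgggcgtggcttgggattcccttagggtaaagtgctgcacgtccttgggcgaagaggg
Cox8a: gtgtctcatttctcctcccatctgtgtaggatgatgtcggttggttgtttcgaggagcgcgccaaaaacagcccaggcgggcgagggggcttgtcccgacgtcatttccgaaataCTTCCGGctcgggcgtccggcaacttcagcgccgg
Cox8b: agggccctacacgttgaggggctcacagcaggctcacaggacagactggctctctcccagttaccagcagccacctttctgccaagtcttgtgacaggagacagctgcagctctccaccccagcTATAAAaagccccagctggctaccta
Cox6b1: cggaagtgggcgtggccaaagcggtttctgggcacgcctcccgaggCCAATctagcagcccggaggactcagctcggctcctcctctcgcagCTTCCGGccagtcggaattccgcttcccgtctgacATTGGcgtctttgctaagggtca
Cox6b2: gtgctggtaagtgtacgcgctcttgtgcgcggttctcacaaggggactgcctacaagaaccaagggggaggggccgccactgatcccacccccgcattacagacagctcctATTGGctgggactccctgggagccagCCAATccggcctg

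In these windows Cox8b held 1 CpG and Cox8a 15, Cox7a1 held 6 and Cox7a2 14, and Cox6b2 held 7 and Cox6b1 13. Cox5a held 26. Over the 300 bases of the RefSeq promoter table, the median ratio of observed to expected CpG was 0.38 in the 4 restricted genes with an entry and 0.828 in the 49 promoters of the other members, against 0.586 in all 20084 promoters. Among the restricted genes, Cox8b and Cox7b2, both unmarked in both genotypes, had ratios of 0.11 and 0.56. The marked Cox7a1 and Cox6b2 lay between them, at 0.33 and 0.43. The widely expressed Cox8a had a ratio of 0.84. TATAAA stood at position 4 of Cox8b, counting the start base as 0.

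YY1 letters sat at one place in the members that held them. The 8 letters AAGATGGC occurred, on either strand, in 7 of 53 member promoters (13.2%) and in 3.06% of all promoters. All 7 read in the direction of the gene and began 22 to 38 bases after the start base. Of the 614 promoters in the table that hold these letters on either strand, 144 (23.5%) had them in the gene's direction at positions 20 to 42, a window set after the members' positions were seen. The 7 genes encode complex I subunits, 1 of them (Ndufs7, which binds an iron-sulfur cluster next to the quinone site) in the core. They are shown as 30 bases each, with the letters in capitals, for Ndufs7 (chr10:80249462-80249491, plus strand), Ndufa3 (chr7:3617384-3617413, plus strand), Ndufa9 (chr6:126849097-126849126, minus strand), Ndufb8 (chr19:44555393-44555422, minus strand), Ndufc1 (chr3:51408915-51408944, minus strand), Ndufs4 (chr13:114388045-114388074, minus strand) and Ndufs6 (chr13:73328433-73328462, minus strand).
Ndufs7: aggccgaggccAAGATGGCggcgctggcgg
Ndufa3: ccgccaagaacAAGATGGCcgggagtaagt
Ndufa9: cattgtgggagAAGATGGCggccgccgtcc
Ndufb8: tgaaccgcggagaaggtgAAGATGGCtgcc
Ndufc1: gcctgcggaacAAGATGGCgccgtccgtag
Ndufs4: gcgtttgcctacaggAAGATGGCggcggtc
Ndufs6: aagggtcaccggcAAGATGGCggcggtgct

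The other motifs were searched as exact letters on both strands of the same 300 bases. NRF1 letters (GCGCATGC) were in 13.2% of member promoters and 3.55% of all promoters, at Cox6a1, Ndufa6, Ndufa8, Ndufa11, Sdhb, Uqcr11 and Uqcrc1. ETS letters (CCGGAAG) were in 20.8% of member promoters and 11.9% of all promoters. The 11 promoters with them included those of Cox6b1, Cox8a, Ndufb7, Ndufs3, Sdhb, Sdhd and Uqcrh. Sp1 letters (GGGCGG) were in 41.5% of member promoters and 47.0% of all promoters, the CCAAT box in 35.8% and 38.1%, and TATA box letters (TATAAA) in 13.2% and 12.7%. These matches describe letters and were not tied to binding, and CpG content differs between the lists being compared.

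**Figure D1:**
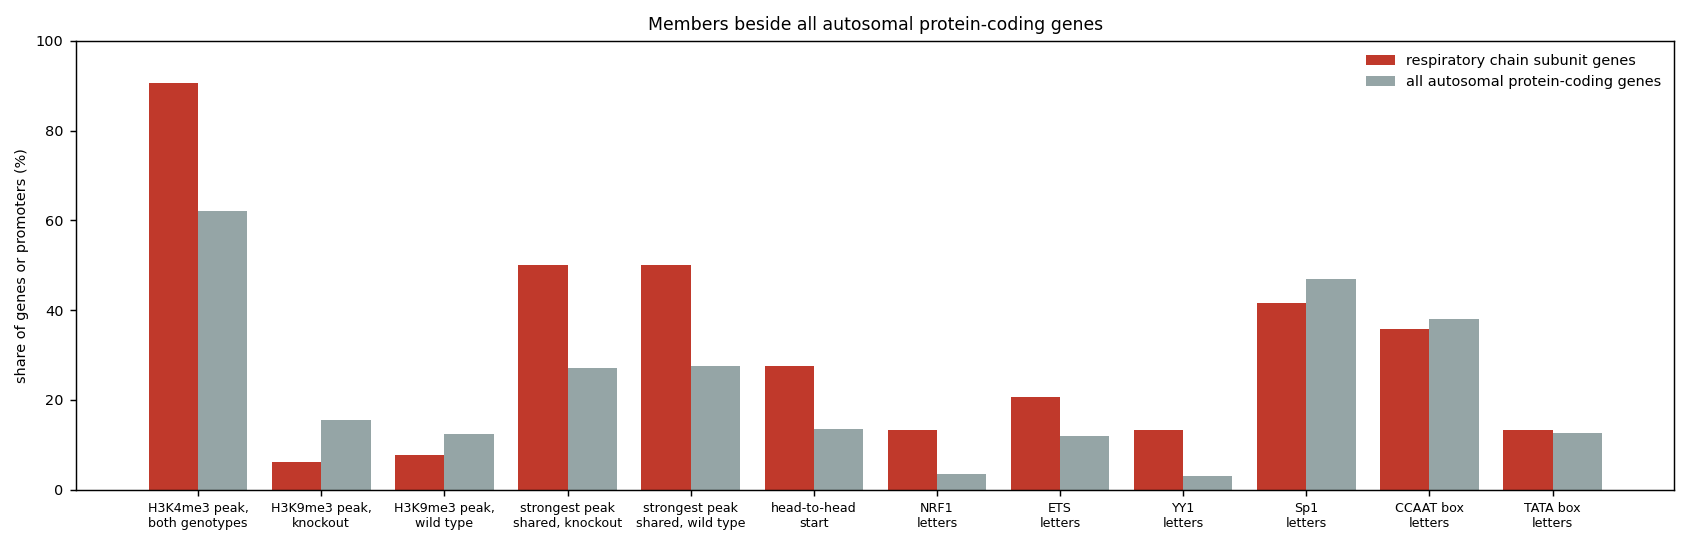
Share of genes or promoters, in percent, for the respiratory chain subunit genes (red, left) and all autosomal protein-coding genes or their promoters (grey, right). The members stand above all genes for an H3K4me3 peak in both genotypes (90.6% and 62.1%), for shared peaks and head-to-head starts and for NRF1, ETS and YY1 letters, and below them for H3K9me3 peaks. Sp1 letters are in 22 of 53 member promoters (41.5%) and 47.0% of all promoters. CCAAT letters are in 19 of 53 (35.8%) and 38.1%.

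Many members shared their peak with a neighbouring gene. The strongest peak also lay at the end of another protein-coding gene for 29 of 58 marked members (50%) in the knockout and 29 (50%) in wild type, against 27.1% of all marked genes in the knockout and 27.5% in wild type. Of the 51 members with an annotated start, 14 (27.5%) had a start within 1000 bp of one of a neighbour on the other strand, running away from it, against 13.6% of all genes with a start. The pairs were Zmat5 with Uqcr10, Rps28 with Ndufa7, Kbtbd4 with Ndufs3, Morn5 with Ndufa8, Vmac with Ndufa11, Timm8b with Sdhd, Phf14 with Ndufa4, Tssk6 with Ndufa13, Asb15 with Ndufa5, Cpsf2 with Ndufb1, Fam126b with Ndufb3, Ccdc127 with Sdha, Mrpl47 with Ndufb5 and Lrrc41 with Uqcrh. At such starts the tags of both genes cannot be told apart. For Ndufs8, Ndufv2 and Ndufb6 the strongest peak lay at the gene's far end in both genotypes, and for Ndufb10 in the knockout, next to Tcirg1, Ankrd12, Smim27 with Topors, and Rps2. At Ndufs8, an iron-sulfur subunit of the complex I core, that far peak held 1214 tags over 8126 bp in the knockout and 1475 over 7964 bp in wild type. Its own start had a peak of 179 tags in the knockout and 169 in wild type.

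At members the strongest peak was narrower in the median than at genes in general, by more in the knockout list than in wild type. The median strongest peak held 146 tags over 1284.5 bp in the knockout and 235.5 tags over 1674.5 bp in wild type, while that of all marked genes held 190 tags over 1512 bp in the knockout and 271 tags over 1700 bp in wild type. Per kb the medians were 118 tags in the knockout and 145 in wild type for members, against 121 in the knockout and 153 in wild type for all marked genes. The authors' fold enrichment over the local background, a value of each peak within its own list, had a median of 10.0 in the knockout and 10.9 in wild type for members, and of 9 in the knockout and 9.53 in wild type for all marked genes.

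**Figure D2:**
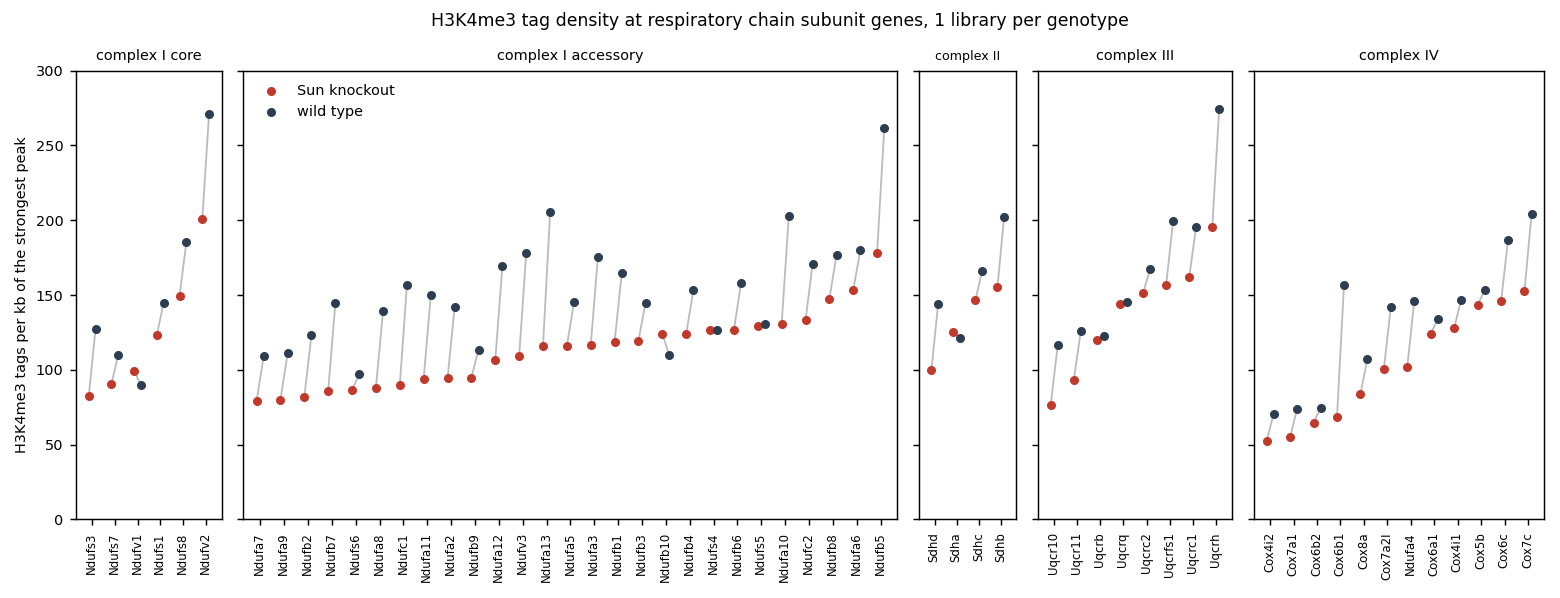
H3K4me3 tags per kb of the strongest peak at a gene end (vertical axis) for marked members, by complex, with the Sun knockout in red on the left and wild type in dark blue on the right of each pair. These are tags as listed, not scaled for depth, and all members drawn except Ndufv1, Sdha and Ndufb10 have the lower density in the knockout. For Ndufb10 the points are different peaks, at the far end in the knockout and over both ends in wild type. Its paired far-end peaks had 124 tags per kb in the knockout and 153 in wild type. Cox4i2, Cox7a1 and Cox6b2 are the lowest in both genotypes.

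Peaks were placed much as at other genes on the gene side of the start and reached less far on the other side. Among the 49 members marked at an annotated start, the median summit lay 193 bp into the gene in the knockout and 167 bp in wild type, against 196 and 178 bp for all genes. The edge inside the gene lay at a median of 1051 bp in the knockout and 1151 bp in wild type, against 1040 and 1147 bp for all genes. The outer edge lay at -121 bp in the knockout and -252 bp in wild type, against -418 and -519 bp for all genes. The strongest peak covered the start itself in 34 of 49 members (69.4%) in the knockout and 41 of 49 (83.7%) in wild type, while for all genes the shares were 84.0% in the knockout and 88.2% in wild type. In the others the peak began inside the gene (12 members in the knockout and 5 in wild type, among them Sdhb, Uqcrc1 and Cox7a2 in both) or ended upstream of it (Ndufa7, Ndufs8 and Uqcrh, 3 members in each genotype).

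**Figure D3:**
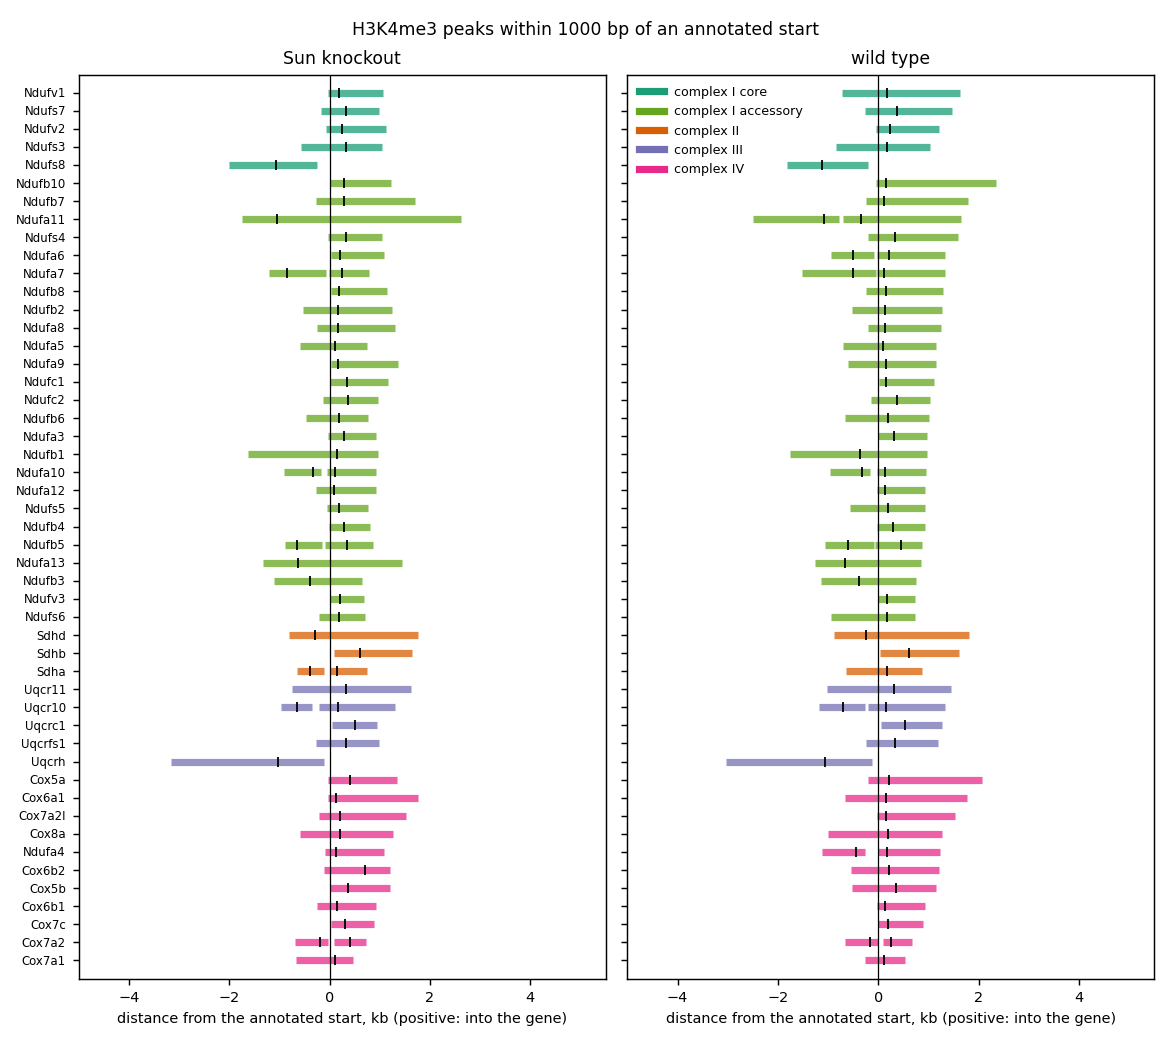
H3K4me3 peaks within 1000 bp of an annotated start for the 49 members that have one, as bars in kb from the start (positive values run into the gene), with the Sun knockout on the left and wild type on the right. Black ticks are summits, and colours are the complexes. Most bars in both panels end about 1 kb into the gene, and the peaks of Ndufs8 and Uqcrh lie wholly upstream.

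Levels were then compared between genotypes in paired peaks. A pair was a knockout peak and a wild type peak with no second partner, whose overlap took at least 50% of each, and of which at least 1 held 50 tags or more. The ratio is the log2 of tag density per kb in the knockout over that in wild type, less its median over all 17114 pairs. That median was -0.34 before centring. After centring, no member reached a 2-fold difference in either direction: 0 of the 52 paired members were at least 2-fold denser in the knockout and 0 at least 2-fold less dense, as were 0.0409% and 0.0117% of all pairs. Scaled to filtered tags in place of centring, Cox6b1 was past 2-fold, at -1.05. The median member had a ratio of -0.06, with quartiles of -0.21 and 0.07 and an SD of 0.23 over genes, against a median of -0.03 over the 11462 genes with a pair. The ratio was below 0 for 31 members (59.6%), and for 55.4% of all genes. Before centring, 51 of the 52 had fewer tags in the knockout, Cox7a1 being the other. The median log2 tag ratio of all pairs was -0.48 before centring, and the share of all pairs with fewer tags is not given here. Scaled to filtered tags instead, 46 of 52 members lay below 0, as did 9591 of the 11462 genes. The median was then -0.25 for members and -0.22 for all genes. A counting interval wholly above 0 was found for 1 member and one wholly below 0 for 5, against 8.73% and 7.26% of all pairs. By complex the median ratio was -0.10 in the complex I core, -0.12 in complex I accessory genes, -0.04 in complex II, -0.01 in complex III and -0.05 in complex IV.

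Narrower knockout peaks went with higher density ratios, and the sign of many ratios differed between density and tags per peak. The knockout peak was the narrower for 40 of 52 members (76.9%), and for 69.5% of all genes. Across members the density ratio and the log2 width ratio had a Pearson correlation of -0.74, as both are made from the same width, and of -0.48 across all genes. When tags per peak were compared without dividing by width, the median member had a centred ratio of -0.12 and 37 of 52 (71.2%) lay below 0, against 53.7% of all genes. The sign differed between density and tags for 28 of the 52 members, and for 4789 of the 11462 genes with a pair. The ratio was below 0 for 20 members in density, in tags per peak and in tags summed over all overlapping peaks. It was above 0 in all of these for 4, and the shares of all genes are not given here. The 4 were Ndufs8, Ndufb6 and Ndufb10, paired at far-end peaks next to other genes, and Ndufb3, whose start is shared with Fam126b. At the starts, density and tag ratios were 0.32 and 0.56 for Ndufs8, -0.05 and -0.37 for Ndufb6, and 0.37 and -0.45 for Ndufb10.

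The least dense member in the knockout relative to wild type was Cox6b1, the widely expressed form of a complex IV subunit on the intermembrane side that helps hold the enzyme's dimer together. Its gene lies at 30616971 to 30626114 on chromosome 7, on the minus strand, with the start shown above inside the peak. The peak held 80 tags over 1172 bp in the knockout (68.3 tags per kb) and 150 tags over 956 bp in wild type (157 tags per kb). The ratio was -0.86 (-1.27 to -0.46), at percentile 0.0175 of all pairs. In tags per peak it was -0.43 (-0.84 to -0.03), so the direction held on both scales and the size depended on the width. The authors' score for the peak, -10 times log10 of its p-value within its own list, was 179 in the knockout and 590 in wild type.

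The other low ratios were in accessory subunits of complex I, which surround the core, many of them being needed for its assembly or stability. Ndufa13, also known as GRIM-19, had 323 tags over 2787 bp in the knockout and 434 over 2112 bp in wild type, a ratio of -0.49 (-0.70 to -0.28). In tags per peak its ratio was 0.05, and its start is shared with Tssk6. Ndufc1 had 105 tags over 1169 bp in the knockout and 173 over 1103 bp in wild type, a ratio of -0.46 (-0.83 to -0.11). Ndufb7 had 170 tags over 1974 bp in the knockout and 293 over 2029 bp in wild type, a ratio of -0.41 (-0.69 to -0.13). Both also lay below 0 in tags per peak, at -0.24 and -0.31. Ndufa8 had 136 tags in the knockout and 204 in wild type, a ratio of -0.33 (-0.65 to -0.01), and Ndufv3 73 and 132, a ratio of -0.37 (-0.80 to 0.05). Ndufa12 had 127 tags over 1192 bp in the knockout and 160 over 945 bp in wild type, a ratio of -0.33, which turned to 0.15 in tags per peak.

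The 6 highest ratios among the 52 pairs were in peaks that were narrower in the knockout. This does not cover start peaks of genes paired at their far end: Ndufb10 had a ratio of 0.37 (0.07 to 0.68) at its start, or -0.45 in tags per peak, and the Ndufs8 start peak was wider in the knockout, with 1739 bp against 1620 bp in wild type. Ndufs4, an accessory subunit next to the NADH-oxidising end of complex I, had 137 tags over 1082 bp in the knockout and 227 over 1790 bp in wild type. Its density was nearly the same as listed, 127 tags per kb in each library, and its centred ratio was 0.34 (0.02 to 0.65), whereas in tags per peak it was -0.25 (-0.57 to 0.06). Ndufs5, on the intermembrane side, had 104 tags over 806 bp in the knockout and 194 over 1482 bp in wild type, with ratios of 0.32 in density and -0.42 in tags. Uqcrb, which lies near a ubiquinone site of complex III, had 73 tags over 608 bp in the knockout and 125 over 1019 bp in wild type, with ratios of 0.31 and -0.30. The same turn of sign was found for Cox5b (0.24 and -0.12), Cox6a1 (0.23 and -0.08) and the complex III core protein gene Uqcrc2 (0.20 and -0.24).

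**Figure D4:**
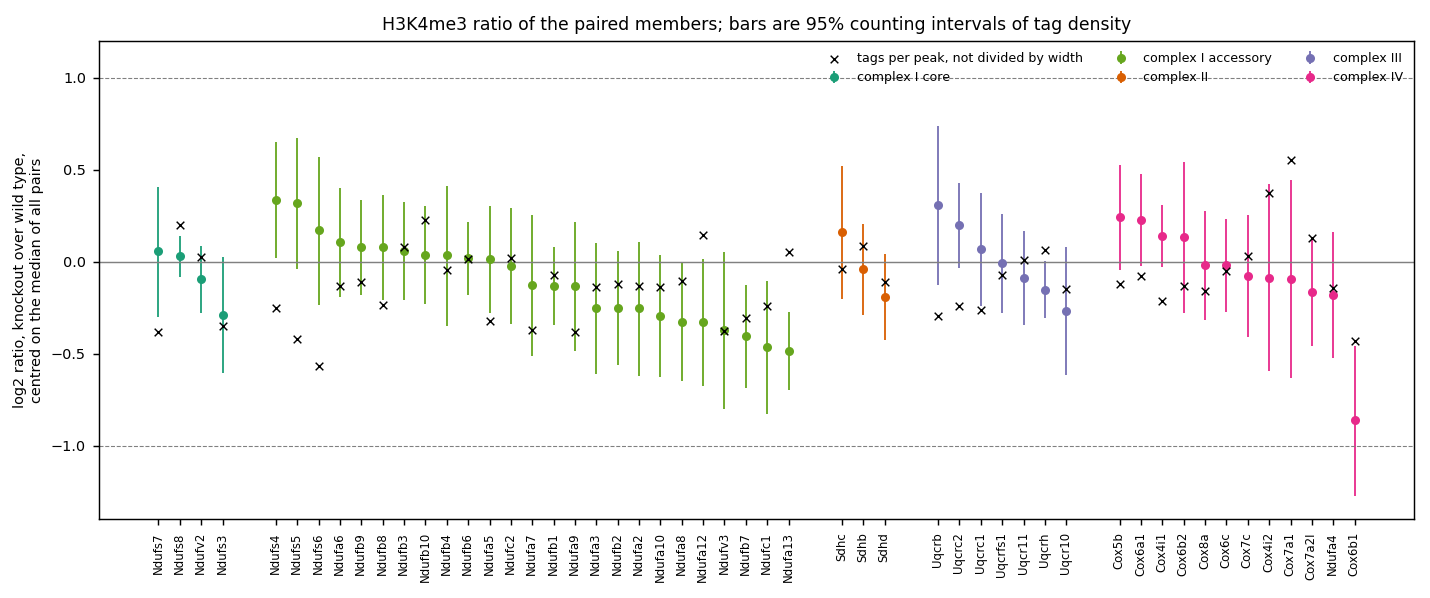
Centred log2 ratio, knockout over wild type, for paired members by complex: coloured points are tag density with exact 95% counting intervals, and black crosses are tags per peak. Dashed lines are 2-fold. Cox6b1 at -0.86 is the lowest point, no point passes a dashed line, and the crosses lie below the points for all 6 genes with the highest density ratios.

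In the complex I core, whose genes encode the flavin, iron-sulfur and quinone-site proteins, ratios of the 5 paired members ran from -0.29 to 0.06. For Ndufs8 (0.03) and Ndufv2 (-0.10) these are the far-end peaks next to other genes. At its own start Ndufs8 had a ratio of 0.32 (0.01 to 0.63), or 0.56 in tags per peak, and Ndufv2 one of -0.15 (-0.45 to 0.14). Ndufs3 was the lowest of the 5, with 134 tags over 1627 bp in the knockout and 238 over 1870 bp in wild type. Ndufv1, which binds NADH and flavin, and Ndufs1 had no pair.

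Complex II oxidises succinate and also serves the citric acid cycle. Sdhb, its iron-sulfur subunit, had 241 tags over 1551 bp in the knockout and 317 over 1568 bp in wild type, a ratio of -0.04 (-0.29 to 0.21). Sdhc, a membrane anchor, had 111 tags over 757 bp in the knockout and 159 over 959 bp in wild type, a ratio of 0.16 (-0.20 to 0.52). Sdhd, the other anchor, had 256 tags over 2572 bp in the knockout and 385 over 2680 bp in wild type, a ratio of -0.19 (-0.42 to 0.04). All of these intervals include 0. Sdha, the flavoprotein, had peaks of 91 and 33 tags in the knockout where wild type had a single peak of 185 tags, so it had no pair.

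In complex III the largest peak by tags was at Uqcrh, the hinge protein gene, with 598 tags over 3064 bp in the knockout and 797 over 2904 bp in wild type. Its ratio was -0.15 (-0.31 to 0.00), and the peak lay upstream of its start, towards Lrrc41. Uqcrfs1, the Rieske iron-sulfur protein gene, had 196 tags in the knockout and 287 in wild type, a ratio of -0.01. In complex IV the largest was at Cox4i1, with 465 tags over 3634 bp in the knockout and 750 over 5110 bp in wild type. Its ratio was 0.14 (-0.03 to 0.31), which was -0.21 in tags per peak. This peak also lay at ends of Emc8 and Gm27021 in both genotypes. At their internal starts, Cox5a had a ratio of 0.46 (0.22 to 0.70), or -0.12 in tags per peak, and Cox7a2 one of -0.42 (-0.87 to 0.03).

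The 6 marked members without a pair differed between libraries in how the peak was cut or how wide it was. Tags summed over all overlapping peaks, centred on the median of all 18896 sets of overlapping peaks, gave -0.65 (-0.98 to -0.33) for Uqcrq, -0.46 (-0.81 to -0.12) for Ndufv1, -0.14 for Ndufb5, -0.09 for Sdha, -0.03 for Ndufs1 and -0.01 for Ndufa11. Uqcrq, a small subunit of complex III, was the lowest of the 58 on this scale, with 118 tags over 820 bp in the knockout and 260 over 1793 bp in wild type. Per kb, as listed and not centred, Uqcrq had 144 tags in the knockout and 145 in wild type, and Ndufv1 had 99.0 and 89.9. The median density ratio of all pairs was -0.34 before centring. Both genes thus lay above that median in density, though below 0 in centred summed tags.

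H3K9me3 was rare at members. A peak at a gene end was listed for 4 of 64 members (6.25%) in the knockout and 5 (7.81%) in wild type, against 15.6% and 12.3% of all genes. Among the 58 members with H3K4me3 the shares were 6.90% in the knockout and 8.62% in wild type, against 23.3% and 17.6% of all H3K4me3-marked genes. The knockout genes were Ndufa13, Ndufb1, Ndufb2 and Cox6c, and the wild type genes Ndufb2, Uqcrh, Cox4i1, Cox6a1 and Cox6c. All but Cox6c had 12 to 18 tags and a score under 100, where the median H3K9me3 peak held 17 tags in the knockout list and 16 in the wild type list. Cox6c, a complex IV subunit gene, had 33 tags over 519 bp in the knockout and 18 over 265 bp in wild type, or 63.6 and 67.9 tags per kb. These lay inside its H3K4me3 peak of 220 tags in the knockout and 317 in wild type. Such overlap was common: it was found for 2 of 4 gene-end H3K9me3 peaks of members in the knockout and 4 of 5 in wild type. Over the gene-end H3K9me3 peaks of all genes the shares were 89.0% in the knockout and 85.4% in wild type. Away from the ends, the gene body held a peak at Cox6b1 in the knockout alone (15 tags). In wild type alone there was one at Ndufb5 (13 tags), Ndufs4 (16) and Cox5a (16, overlapping its H3K4me3 peak). Cox7b2, which had no H3K4me3 peak, held one in both genotypes, of 35 tags over 519 bp in the knockout and 42 over 664 bp in wild type. The share of all genes with such a body peak is not given here.

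Most other genes of the pathway were marked in both genotypes, and their list medians lay between -0.13 and -0.01. ATP synthase subunit genes were marked at 17 of 17 in both genotypes, with a median ratio of -0.01. Complex I assembly factors were marked at 14 of 14, with a median of -0.11 over 10 pairs, and assembly factors of complexes II to IV at 28 of 28, with a median of -0.12 over 27 pairs. Mitochondrial ribosomal protein genes were marked in both genotypes at 71 of 78, with a median of -0.09 and 45 of 64 below 0. Regulators of mitochondrial genes were marked in both at 11 of 13. Of the other 2, Polg, the mitochondrial DNA polymerase gene, had a gene-end peak of 113 tags in wild type alone, and Gabpb1 had none at its gene ends in either. Counted over the gene body, Gabpb1 had 1 peak in the knockout and 1 in wild type, and Polg 1 and 3. No gene of these lists reached 2-fold in density, while in tags per peak Mrpl27 was past 2-fold, at -1.29.

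Within these lists, Cycs, which encodes the cytochrome c that carries electrons from complex III to IV, had 128 tags over 1364 bp in the knockout and 198 over 1231 bp in wild type, a ratio of -0.44 (-0.77 to -0.11). Cyc1, which encodes cytochrome c1 of complex III, had 359 tags over 1826 bp in the knockout and 434 over 1972 bp in wild type, a ratio of 0.18 (-0.03 to 0.38). Among assembly factor genes the highest ratios were those of Pet117 (0.59), Lyrm7 (0.56), Sdhaf1 (0.54) and Cox19 (0.44), and in tags per peak these were -0.02, -0.29, -0.28 and -0.37. The lowest assembly factor ratios were those of Nubpl (-0.48) and Coa7 (-0.47), or -0.08 and -0.27 in tags per peak. Among mitochondrial ribosomal protein genes Mrpl19 was the highest, at 0.53, or -0.22 in tags per peak. The lowest of these were Mrps14 (-0.67), Mrpl13 (-0.56) and Mrpl27 (-0.53), which in tags per peak were -0.26, -0.36 and -1.29. Nrf1 had 453 tags in the knockout and 611 in wild type and a ratio of -0.09, and Yy1 594 and 748 tags and a ratio of -0.05. Gabpa had 379 tags in the knockout and 571 in wild type and a ratio of -0.25 (-0.44 to -0.06), in a peak that it shares with the ATP synthase gene Atp5j.

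**Figure D5:**
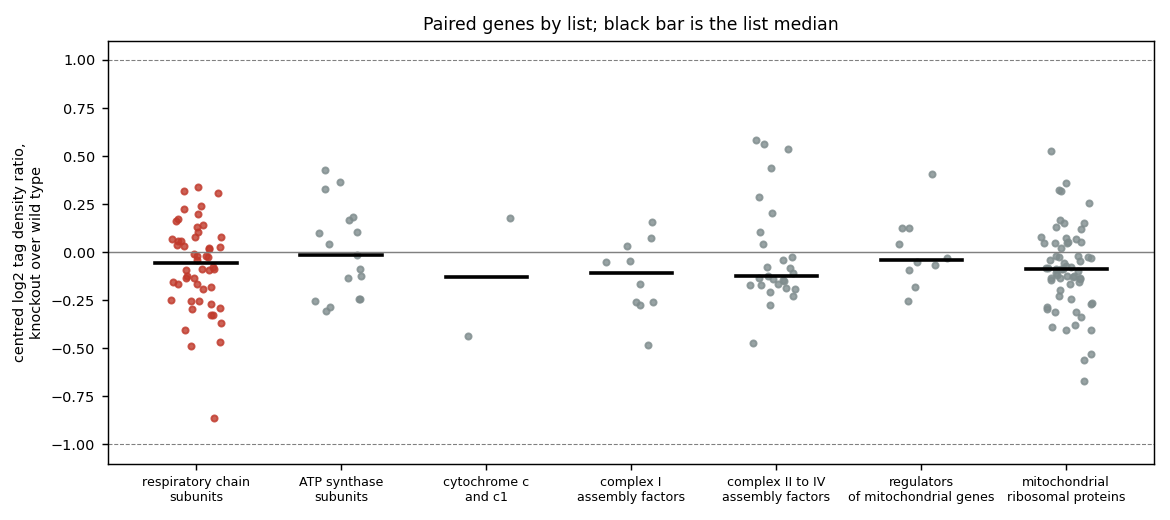
Centred log2 tag density ratio, knockout over wild type, of each paired gene in the respiratory chain subunits (red) and in the other pathway lists (grey), with black bars at the list medians and dashed lines at 2-fold. List medians lie between -0.13 and -0.01, and no point passes 2-fold.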

How the data were processed

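ChIP-seq of H3K4me3 and H3K9me3 was carried out on Sun-/- and wild type peritoneal macrophages, with 1 library per mark and genotype, grouped by the labels. CASAVA 1.4, Bowtie 0.12.8, MACS 1.4.2, DiffBind and the build mm10 are named in the submitters' processing notes, without roles. Each file is the authors' peak list of 1 library, made by MACS 1.4.2 with no control library, a p-value limit of 1e-05 and duplicates beyond 1 tag per position removed, per the file headers. The deposited values per peak are a tag count, a score (-10 times log10 of the p-value), a fold enrichment over the caller's local background (a linear ratio), and the other measures width and summit in bp. H3K4me3 tags were 49 bp long in the knockout and 50 bp in wild type, per the file headers. Lists called at one p-value limit depend on depth, and no tags outside peaks were at hand, so a gene without a listed peak may still carry the mark.

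Gene positions, 300-base promoters and strands came from RefSeq tables on GRCm38.p6, which is mm10; promoter entries were matched by symbol for 51 of 64 members. The highest number of tags among peaks within 1000 bp of a gene's ends gave its strongest peak. Pairs, ratios and intervals were computed as given above, in Python 3.11.15 (pandas 2.3.3, numpy 2.4.6; intervals with scipy 1.17.1, figures with matplotlib 3.10.9), and the pairing was tested on simulated data. Named genes were those without a peak, those with H3K9me3, the 6 highest and 6 lowest ratios, the 4 most and 4 fewest tags per genotype, complex II, and restricted isoforms beside their counterparts; other genes named were chosen after their values were seen. Members and lists were chosen with earlier results of these data known. Alternatives changed the window, score, end rule, scaling, overlap, tag minimum and symbols. 1 gene that these rules name is not reported here.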

Additional observations from a re-analysis of the deposited data

How the results depend on the processing

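The count of members with H3K4me3 in the knockout and in wild type stayed within 1.5 times its value under every alternative run. At a score of at least 100, 1 member was marked in the knockout alone (Ndufs8) and 2 in wild type alone (Cox4i2 and Ndufs6), and with suffixed symbols and Ndufab1 included 1 was marked in wild type alone (Ndufb4c). Members with H3K9me3 became 7 in the knockout with a window of 2500 bp and 9 in wild type over the whole gene body. At a score of at least 100 they became 1 in the knockout and 0 in wild type, and by RefSeq starts alone, an alternative chosen after seeing the data, 1 and 3. The median centred ratio was -0.12 in tags per peak, -0.11 at 80% reciprocal overlap, -0.012 with at least 100 tags and -0.11 in tags summed over overlapping peaks. With scaling in place of centring, the median ratio was -0.25 by filtered tags and -0.15 by library totals. Such scaling moves every pair by the same amount, and the medians of all genes were then -0.22 and -0.12. Scaled to filtered tags, 1 member (Cox6b1, -1.05) was at least 2-fold lower in the knockout. The cause of the other shifts was not tested. For single genes, 30 alternative values moved beyond the counting interval and 78 did not. No paired analysis was possible because there was 1 library per mark and genotype, which also left no replicate to leave out. Peaks of under 100 tags carry counting intervals wider than most ratios here.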
